A study of Macaca mulatta with 20 samples.

Results

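A set of 50 genes of cell division was followed through 5 sources of rhesus macaque RNA. The list was given by gene symbol and held 15 genes of DNA replication, 5 regulators of the entry into S phase and 30 genes of mitosis. A gene was read from every probe set that the array annotation pairs with its symbol alone, with CDC2 taken as CDK1, and was represented by its brightest probe set. All 50 genes were found among 19775 named genes with human probes and 35 of them among 14132 with rhesus probes. The 15 genes with no named rhesus probe set here were MCM6, MCM7, RRM2, PLK1, PLK4, TTK, BUB1, BUB1B, CDC20, UBE2C, NDC80, BIRC5, NUSAP1, PRC1 and HMMR. They comprised 3 of the replication genes and 12 of the mitosis genes, and their values come from the human arrays alone.

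A dividing cell copies its DNA in S phase and separates the copies in mitosis. The copying needs licensing factors and the MCM helicase at replication origins, a sliding clamp for the polymerases and a supply of nucleotides. Most transcripts of this first set are switched on by E2F factors late in G1. Mitosis uses cyclins A and B with the kinase CDK1, the Aurora and Polo kinases, the kinetochore and the spindle checkpoint, and the transcripts for these parts rise later, in G2. Mature neurons of the cortex and enzyme-secreting cells of the pancreas rarely divide, whereas the thymus holds thymocytes that proliferate as they mature and the testis holds dividing germ cells.

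The RNA came from 4 tissues, namely thymus, testis, pancreas and cerebral cortex, and from immortalized fibroblasts, which are connective tissue cells grown in culture. Each RNA was split, and aliquots of 5 ug of total RNA were labelled and hybridized to 2 Rhesus Macaque Genome arrays, with probes for rhesus transcripts, and to 2 Human Genome U133 Plus 2.0 arrays, with probes for human transcripts, so that 10 arrays of each type were read. By their labels the arrays of each source are technical replicates. The p-values therefore measure the spread between arrays of 1 RNA preparation, and a difference between sources may be one between animals or preparations. The number, age and sex of the animals and the way in which the fibroblasts were immortalized are not stated in the sources used here, and no sorting by cell type is named.

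All values are deposited log2 expression values of probe sets, and a difference of 1 is a doubling. Unspiked bacterial control probe sets averaged 2.13 to 3.12 with rhesus probes and 2.14 to 3.12 with human probes, and a level in this range is taken below as background. Probe sets differ in brightness, so levels are compared between sources within a gene and not between genes. Differences were fitted with limma over all probe sets of an array type. A gene is said to be higher or lower where the Benjamini-Hochberg adjusted p was under 0.05 and the log2 difference was 1 or more in size.

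Source markers were highest in their own source for 7 of 7 cortical, 7 of 8 fibroblast, 6 of 6 pancreatic and 6 of 6 thymic genes with rhesus probes and for 8 of 8, 7 of 8, 7 of 7 and 8 of 8 with human probes. The thymic marker CD3E reached only 2.75 in thymus with human probes, in the background range. Markers of somatic cells of the testis were highest there for 6 of 6 and 6 of 7 genes, but germ cell markers for 4 of 5 and 4 of 8, with medians in testis of 5.80 and 4.18. PRM1, the protamine of mature sperm, was the lowest of these germ cell markers in testis, near background at 3.21 and 2.43. ZPBP, from the same list, was the highest there, at 7.58 and 7.89. The pancreas had the widest spread between its paired arrays, at an SD of 0.281 with rhesus and 0.218 with human probes against 0.137 to 0.170 and 0.150 to 0.166 in the other sources.

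The division genes were highest in thymus, next in fibroblasts, lower in testis and lowest in cortex and pancreas. The median level over the 35 genes with rhesus probes was 9.44 in thymus, 8.08 in fibroblasts, 6.38 in testis, 4.55 in pancreas and 4.32 in cortex. Over the 50 genes with human probes these medians were 8.32, 6.94, 5.18, 3.54 and 3.31. The highest mean of a gene lay in thymus for 31 of 35 genes with rhesus probes and for 40 of 50 with human probes, and in fibroblasts for 3 and 8. The whole order of thymus, fibroblasts and testis above the other sources was kept by 22 of 35 and 30 of 50 genes. Cortex and pancreas were within 1 of each other for 24 and 40 genes. In cortex 9 genes with rhesus and 20 with human probes lay at or under the highest background control, so differences from cortex are often not exact folds. In pancreas these were 7 and 17 genes, in testis 1 and 8, in fibroblasts 0 and 4, and in thymus 0 and 4.

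**Figure D1:**
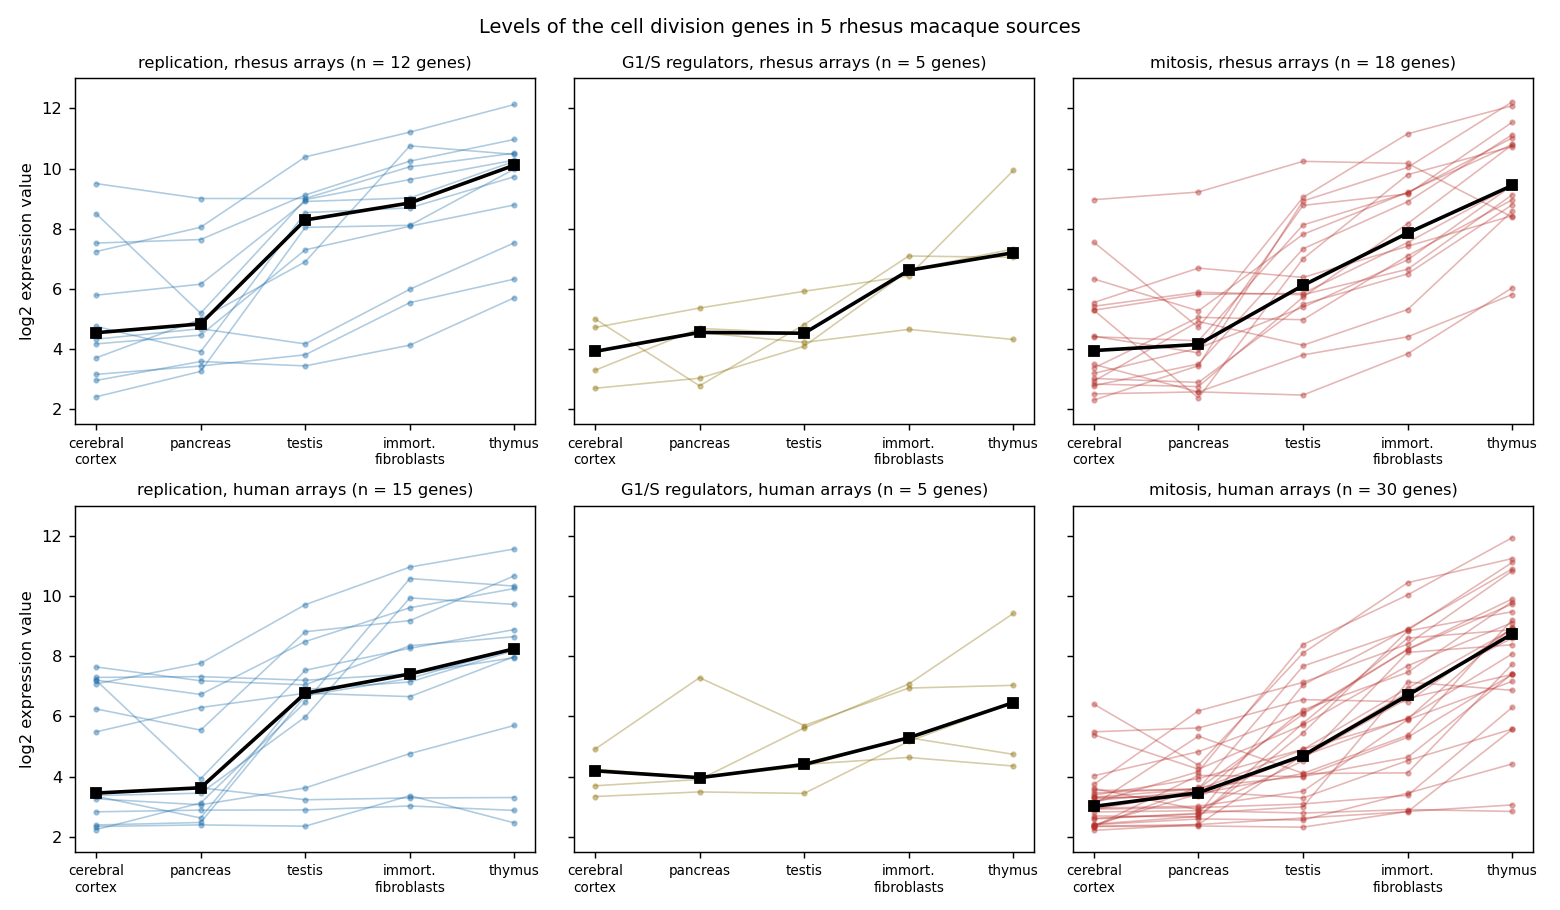
Log2 expression value (vertical axis) of each gene in cerebral cortex, pancreas, testis, immortalized fibroblasts and thymus (horizontal axis), in panels for replication genes, G1/S regulators and mitosis genes on rhesus arrays (top) and human arrays (bottom). Thin lines join the means of 2 arrays for 1 gene and the black line joins the medians over genes, which reach 10.12 in thymus for the replication genes and 9.44 for the mitosis genes with rhesus probes.

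The main comparison set the cultured cells against the tissue with the highest levels. Fibroblasts had lower levels than thymus for 20 of 35 division genes with rhesus probes and for 25 of 50 with human probes. Of all named genes, 16.0% with rhesus and 9.15% with human probes were lower in fibroblasts. Higher in fibroblasts were 1 division gene with rhesus probes and 0 with human probes, beside 18% and 11.1% of all genes. Of the human values, 3 were higher at an unadjusted limma p under 0.05, and 0 were called by an ordinary analysis of variance contrast. The median log2 difference, fibroblasts minus thymus, was -1.41 over the genes with rhesus probes and -1.05 with human probes, beside 0.0643 and 0.0258 over all genes. In bulk RNA, fewer cells of a type and less RNA per cell cannot be told apart. The spiked control transcripts averaged 9.59 in fibroblasts and 10.1 in thymus with rhesus probes and 9.93 and 10.3 with human probes. When they were used for scaling, all differences moved up by a median of 0.516 and 0.409, and 17 and 21 genes were lower in fibroblasts.

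Most genes that were lower in fibroblasts were mitosis genes. With rhesus probes 15 of 18 mitosis genes were lower, 1 was higher and 2 passed neither way, with a median difference of -2.04. With human probes 21 of 30 were lower and 9 were not called, with a median of -1.86. Of the replication genes, 4 of 12 with rhesus probes and 2 of 15 with human probes were lower, with medians of -0.85 and -0.60. The G1/S regulators gave 1 of 5 and 2 of 5 lower, with medians of -0.59 and -0.09. A gene was also counted as lower where any of its probe sets was, a count chosen after the values were seen. The mitosis genes then gave 18 of 18 and 22 of 30 and the replication genes 6 of 12 and 4 of 15. The G1/S regulators again gave 1 and 2. This rule can only keep or raise a count, and the share of all genes that meet it was not computed. The gap between replication and mitosis genes is a description of these counts and medians and was not tested. Not every probe set of a called gene was lower. With human probes 1 of 4 probe sets was lower for MKI67 and CHEK1, 1 of 3 for CCNB2 and 1 of 2 for AURKB. For CENPF and TOP2A it was 2 of 3, whereas 3 of 3 were lower for ASPM and 2 of 2 for CCNA2. With rhesus probes 1 of 2 was lower for AURKB and for CDC6 and 2 of 3 for AURKA, whereas 3 of 3 were for ASPM, MKI67 and CDK1.

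**Figure D2:**
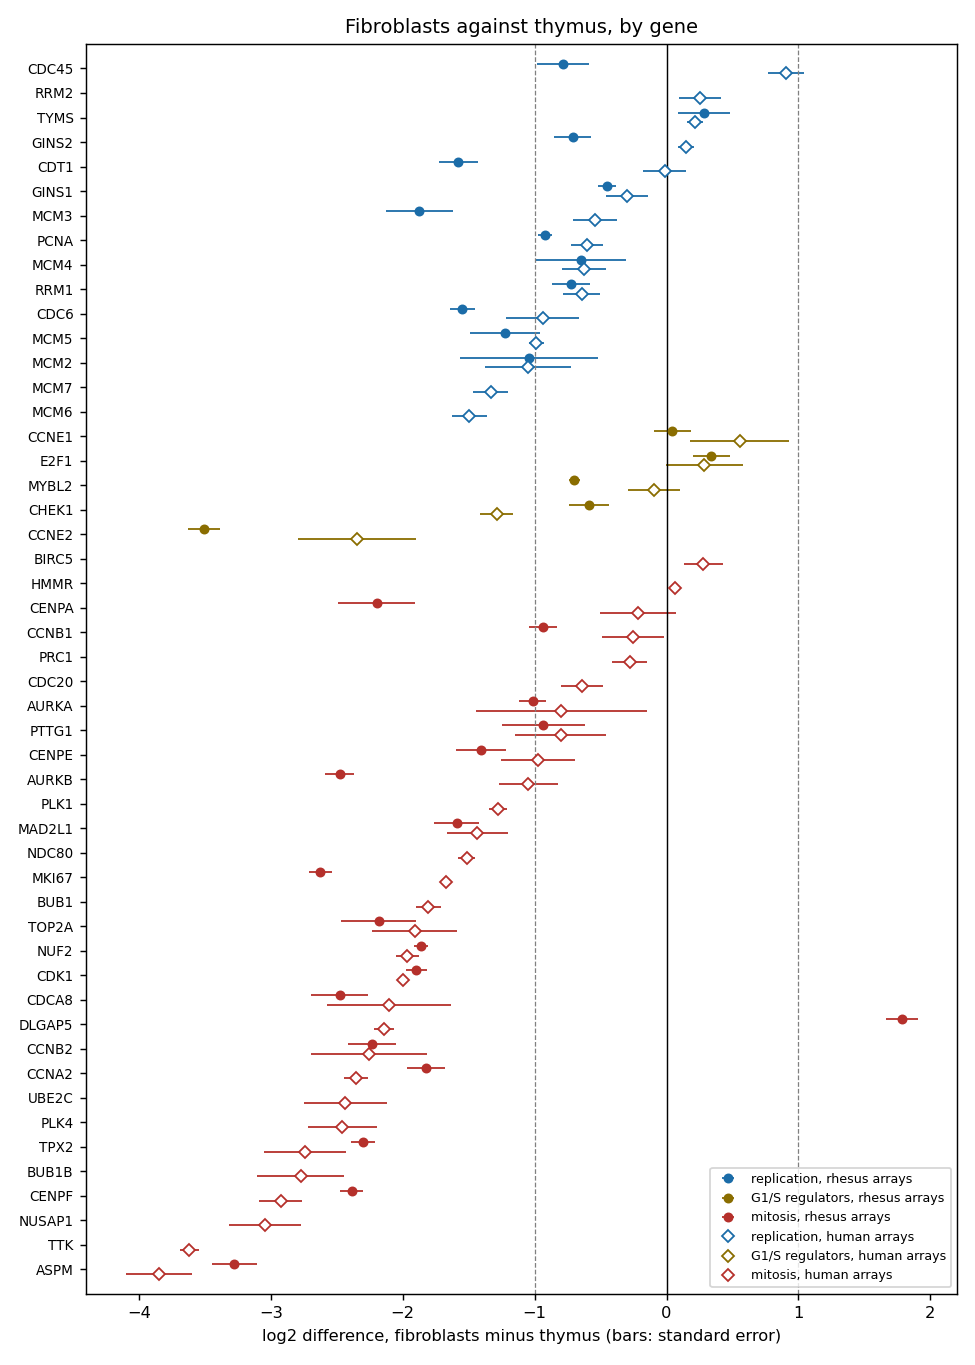
Log2 difference of fibroblasts minus thymus (horizontal axis) for each gene (vertical axis, replication genes on top, then G1/S regulators and mitosis genes), with filled circles for rhesus arrays, open diamonds for human arrays, bars of 1 standard error from limma and dashed lines at -1 and 1. The mitosis genes range from -3.28 to 1.78 with rhesus probes and from -3.85 to 0.28 with human probes, and the replication genes from -1.87 to 0.29 and from -1.49 to 0.91.

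The mitosis genes named first are those with the largest mean difference among the genes called on both array types, in the order ASPM, CENPF, TPX2, CDCA8 and CCNB2. ASPM, a spindle pole protein known for its part in brain size, measured 5.54 and 5.08 on the 2 rhesus arrays of fibroblasts and 8.54 and 8.63 on those of thymus. The human arrays gave 5.36 and 5.38 in fibroblasts and 9.26 and 9.18 in thymus. On both array types every thymus array stood far above every fibroblast array. The log2 difference was -3.28 (SE 0.169, adjusted p = 9.46e-06, limma), a 9.69-fold lower level, with rhesus probes and -3.85 (SE 0.250, adjusted p = 8.91e-05, limma), 14.4-fold lower, with human probes. In cortex ASPM measured 2.78 and 3.08 with rhesus and 2.94 and 3.19 with human probes, near background.

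CENPF, a large kinetochore protein, measured 9.19 and 9.13 in fibroblasts and 11.53 and 11.56 in thymus with rhesus probes, a difference of -2.39 (SE 0.087, adjusted p = 1.9e-06, limma). With human probes CENPF was seen above background in thymus, with 6.28 and 6.33, whereas fibroblasts gave 3.10 and 3.65. The difference there was -2.93 (SE 0.164, adjusted p = 4.69e-05, limma) and is not an exact fold, because fibroblasts were near background. TPX2, which activates Aurora A on the spindle, behaved alike, with 6.58 and 6.41 in fibroblasts against 8.86 and 8.74 in thymus with rhesus probes and 3.26 and 2.40 against 5.78 and 5.37 with human probes. Its differences were -2.30 (SE 0.088, adjusted p = 2.36e-06, limma) and -2.74 (SE 0.310, adjusted p = 0.00112, limma).

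CDCA8, the borealin subunit of the chromosomal passenger complex, measured 6.98 and 6.94 in fibroblasts and 9.46 and 9.42 in thymus with rhesus probes. Its human arrays gave 4.89 and 5.72 against 7.23 and 7.59, where the fibroblast arrays lay apart from each other but still below both thymus arrays. The differences were -2.48 (SE 0.215, adjusted p = 0.00012, limma) and -2.10 (SE 0.472, adjusted p = 0.0237, limma). CCNB2, the B-type cyclin of the Golgi that partners CDK1, measured 8.87 and 8.93 in fibroblasts and 11.14 and 11.11 in thymus with rhesus probes. The human arrays gave nearly the same pair of levels, 8.97 and 8.76 against 11.12 and 11.13. Its differences were -2.23 (SE 0.183, adjusted p = 9.09e-05, limma) and -2.26 (SE 0.442, adjusted p = 0.0133, limma). With human probes CDCA8 lost its call without fibroblast replicate 3 (adjusted p = 0.104), thymus replicate 3 (0.0683) or thymus replicate 4 (0.118), and CCNB2 without fibroblast replicate 4 (0.0724), thymus replicate 3 (0.0614) or thymus replicate 4 (0.0634).

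The next genes were chosen after their values were seen, to cover the other parts of the mitotic machinery. MKI67, the antigen used to mark dividing cells, measured 8.11 and 8.23 in fibroblasts and 10.80 and 10.79 in thymus with rhesus probes, a 6.16-fold lower level in fibroblasts. Its human values were 8.20 and 8.27 against 9.94 and 9.88, a 3.19-fold lower level. TOP2A, the topoisomerase that untangles sister chromatids, measured 10.05 and 10.02 in fibroblasts and 12.19 and 12.25 in thymus with rhesus probes. The human arrays gave 10.13 and 9.95 against 11.96 and 11.95. Both genes were thus strongly expressed in fibroblasts and still lower than in thymus, with differences for TOP2A of -2.18 (SE 0.284, adjusted p = 0.000895, limma) and -1.91 (SE 0.321, adjusted p = 0.00685, limma).

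**Figure D3:**
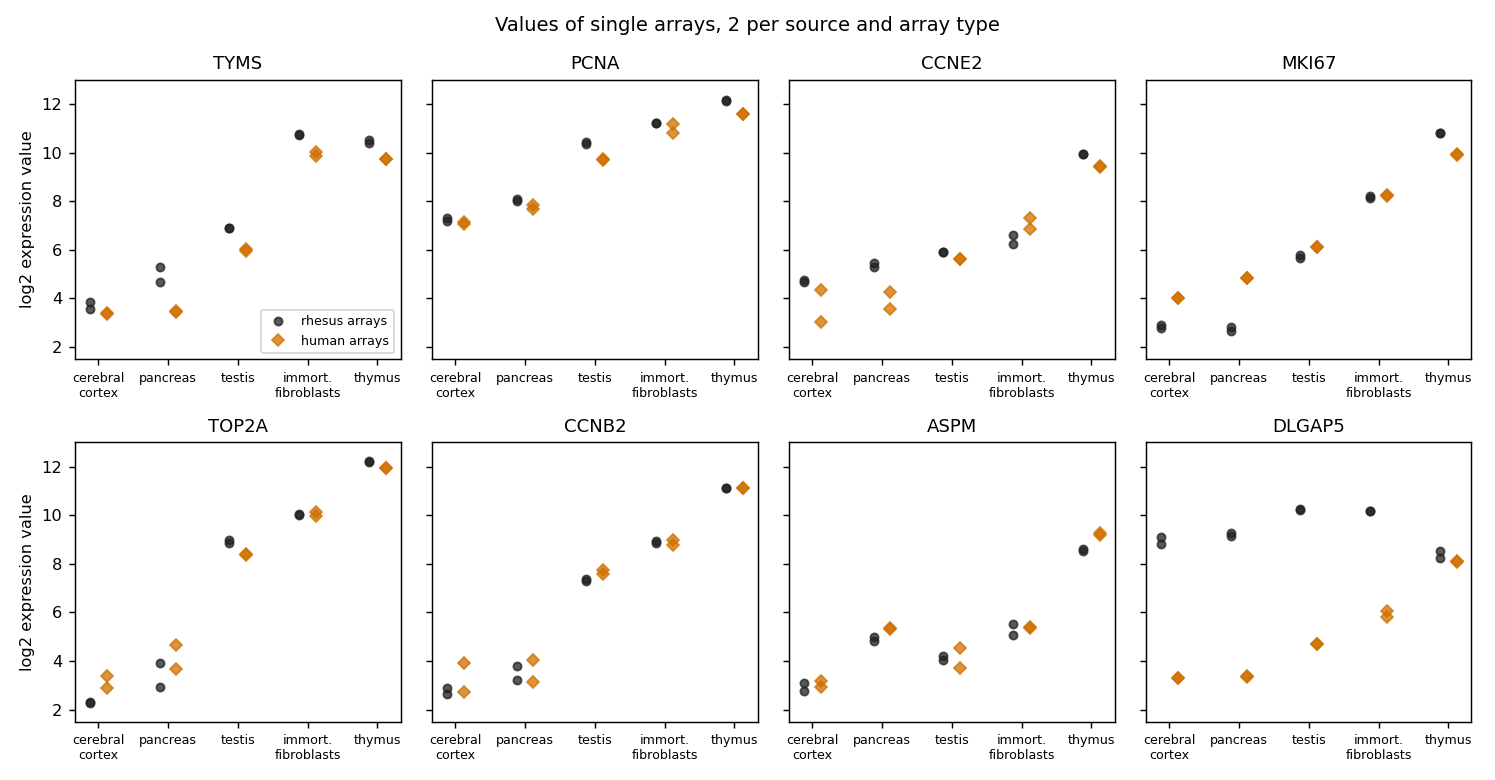
Log2 expression value (vertical axis) of every array for TYMS, PCNA, CCNE2, MKI67, TOP2A, CCNB2, ASPM and DLGAP5 in the 5 sources (horizontal axis), with circles for rhesus arrays and diamonds for human arrays, 2 of each per source. TYMS stands at 10.73 and 10.78 in fibroblasts beside 10.53 and 10.41 in thymus with rhesus probes, whereas ASPM stands at 5.54 and 5.08 beside 8.54 and 8.63.

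CDK1, the kinase at the core of mitotic entry, and its cyclin A were lower in fibroblasts on both array types. CDK1 differed by -1.90 (SE 0.078, adjusted p = 3.32e-06, limma) with rhesus probes and by -2.00 (SE 0.022, adjusted p = 5.87e-08, limma) with human probes. CCNA2, cyclin A, differed by -1.83 (adjusted p = 7.4e-05, limma) and -2.36 (adjusted p = 8.79e-06, limma). CCNB1, cyclin B1, missed the call on both array types in its brightest probe sets, with -0.94 with rhesus and -0.25 with human probes, though the rhesus value passed at -1.01 without fibroblast replicate 2 and at -1.02 without thymus replicate 2. A dimmer rhesus probe set of CCNB1 was lower in fibroblasts by -2.13 (adjusted p = 4.39e-05, limma). On its human arrays the thymus values of 8.52 and 8.25 overlapped the fibroblast values of 8.33 and 7.94.

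Among kinetochore and checkpoint genes, NUF2 and MAD2L1 were lower in fibroblasts on both array types. NUF2, a subunit of the NDC80 complex that holds microtubules, measured 7.16 and 7.04 in fibroblasts and 8.97 and 8.95 in thymus with rhesus probes, and 6.93 and 6.95 against 8.97 and 8.84 with human probes. MAD2L1, a checkpoint protein that restrains anaphase, differed by -1.59 (adjusted p = 0.000334, limma) and -1.43 (adjusted p = 0.00567, limma). PTTG1, the securin that holds back separase, was not called in its brightest probe sets, with differences of -0.93 (SE 0.317, adjusted p = 0.0579, limma) and -0.80 (SE 0.346, adjusted p = 0.204, limma), but 2 of its 4 rhesus probe sets were lower in fibroblasts, by -3.30 and -3.21. AURKA, the spindle pole kinase, was lower by the call with rhesus probes, at -1.02, and was not called with human probes, at -0.80, although 1 of its 3 human probe sets was lower, by -1.31. The rhesus call of AURKA was lost by its size without fibroblast replicate 2 (-0.96) or thymus replicate 1 (-0.95).

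Of the 15 genes read with human probes alone, 10 were lower in fibroblasts and 5 were not called, with a median difference of -1.49. The lowest was TTK, the checkpoint kinase MPS1, which measured 4.11 and 4.14 in fibroblasts and 7.85 and 7.64 in thymus. Its difference was -3.62 (SE 0.071, adjusted p = 6.28e-07, limma), a 12.3-fold lower level. NUSAP1, a microtubule binding protein of the spindle, measured 5.95 and 5.89 against 8.97 and 8.97. BUB1B, the checkpoint protein BUBR1, measured 4.27 and 5.01 against 7.48 and 7.35, with fibroblast arrays further apart than thymus arrays. The differences of NUSAP1 and BUB1B were -3.05 (adjusted p = 0.000369, limma) and -2.78 (adjusted p = 0.00137, limma).

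The 5 genes of this set that were not called were BIRC5, PRC1, CDC20, HMMR and RRM2. BIRC5, survivin of the chromosomal passenger complex, measured 7.15 and 7.14 in fibroblasts and 6.77 and 6.97 in thymus, a difference of 0.28 (SE 0.148, adjusted p = 0.305, limma). PRC1, which bundles microtubules of the central spindle, measured 8.62 and 8.59 against 8.81 and 8.96. CDC20, the activator of the anaphase promoting complex, measured 8.81 and 8.88 against 9.43 and 9.54, all fibroblast arrays below both thymus arrays, but the difference of -0.64 (adjusted p = 0.0369, limma) was under the size set for a call. UBE2C, the ubiquitin conjugating enzyme that works with that complex, was lower in fibroblasts by -2.44 (adjusted p = 0.00209, limma). HMMR was at background in every source with human probes, between 2.77 and 2.93, so it gave no comparison. GINS2, a replication gene, and CENPA, the centromeric histone, were also at background on average in all 5 sources there.

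Among the replication genes no member was called on both array types by its brightest probe set, though MCM4 and RRM1 had dimmer probe sets that were lower in fibroblasts on both. By the brightest probe set, 8 of the 12 genes read on both were called on neither and 4 with rhesus probes alone. TYMS, thymidylate synthase, which makes the thymine nucleotide, measured 10.73 and 10.78 in fibroblasts and 10.53 and 10.41 in thymus with rhesus probes. The human arrays gave 9.87 and 10.03 against 9.72 and 9.74, so all fibroblast arrays lay slightly above the thymus arrays of their type. The difference was 0.29 (95% interval -0.20 to 0.77, adjusted p = 0.304, limma) with rhesus probes and 0.22 (95% interval 0.07 to 0.36, adjusted p = 0.0524, limma) with human probes. These intervals do not reach the size of the differences of ASPM or CCNB2. A dimmer human probe set of TYMS differed by 1.21 (adjusted p = 0.0653, limma). The 3 rhesus probe sets of TYMS ranged from -0.366 to 0.285, and none of its probe sets was called on either array type.

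RRM2, the small subunit of ribonucleotide reductase, was chosen after its values were seen, because it serves nucleotide supply as TYMS does. It measured 10.59 on both human arrays of fibroblasts and 10.31 and 10.37 in thymus, a difference of 0.25 (95% interval -0.13 to 0.64, adjusted p = 0.369, limma). In cortex the same probe set gave 2.46 and 2.02, at background. RRM1, the large subunit, measured 10.33 and 10.16 in fibroblasts and 11.00 and 10.94 in thymus with rhesus probes, a difference of -0.72 (adjusted p = 0.00674, limma). With human probes it measured 9.65 and 9.58 against 10.23 and 10.29, a difference of -0.64 (adjusted p = 0.0209, limma). The fibroblast arrays of RRM1 lay below the thymus arrays on both types, by less than the size set for a call in these brightest probe sets. Its dimmer probe set was lower in fibroblasts by the call on each type, by -1 (adjusted p = 0.000243, limma) and -1.36 (adjusted p = 0.00619, limma).

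PCNA, the sliding clamp of the replication fork, measured 11.20 and 11.22 in fibroblasts and 12.15 and 12.12 in thymus with rhesus probes. The human arrays gave 11.16 and 10.79 against 11.58 and 11.57. The differences were -0.92 (SE 0.055, adjusted p = 1.83e-05, limma) and -0.60 (SE 0.120, adjusted p = 0.0143, limma), and neither reached 1 in size. MCM4, a subunit of the replicative helicase, differed by -0.65 and -0.62 in its brightest probe sets, which were not called, but 2 of its 4 rhesus probe sets were lower in fibroblasts, by -2.47 and -2.20, and so were 2 of its 5 human ones, by -2.60 and -1.85. GINS1, a subunit of the complex that joins the helicase to the fork, differed by -0.45 and -0.30, and with spiked control scaling both GINS1 differences turned positive, to 0.06 and 0.11.

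The replication genes lower in fibroblasts with rhesus probes were MCM3, CDT1, CDC6 and MCM5, with differences of -1.87, -1.58, -1.55 and -1.22. The dimmer of the 2 rhesus probe sets of CDC6 was not called, at -0.807. CDC6 and CDT1 load the MCM helicase onto origins. The call of MCM5 was lost without fibroblast replicate 1 (adjusted p = 0.0504) or thymus replicate 1 (adjusted p = 0.0605). With human probes the calls were MCM6 and MCM7, with differences of -1.49 (SE 0.133, adjusted p = 0.000373, limma) and -1.33 (SE 0.130, adjusted p = 0.000557, limma). Each has 2 human probe sets, and the dimmer one was not called, at 0.049 for MCM6 and -0.18 for MCM7. MCM6 measured 9.26 and 9.12 in fibroblasts and 10.67 and 10.70 in thymus.

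CCNE2, cyclin E2, was the G1/S regulator that was called on both array types. It measured 6.62 and 6.25 in fibroblasts and 9.94 on both thymus arrays of the rhesus type. With human probes it gave 7.30 and 6.86 against 9.46 and 9.40. The differences were -3.51 (SE 0.122, adjusted p = 1.54e-06, limma), the lowest of the 35 rhesus values, and -2.35 (SE 0.449, adjusted p = 0.012, limma). The human call was lost without fibroblast replicate 4 (adjusted p = 0.0712), thymus replicate 3 (0.0595) or thymus replicate 4 (0.0563). CCNE1, the other cyclin E, did not share this pattern, with 7.11 and 7.07 in fibroblasts and 7.05 on both thymus arrays of the rhesus type. Its differences were 0.04 (SE 0.141, adjusted p = 0.833, limma) and 0.55 (SE 0.378, adjusted p = 0.408, limma).

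E2F1, the transcription factor of the G1/S transition, ran from 3.83 to 4.75 over all 10 rhesus arrays and from 3.59 to 4.95 over all 10 human arrays. It was called in none of the 10 pairs of sources on either array type. MYBL2, a factor of the complex that switches on G2 genes, differed by -0.70 (adjusted p = 2e-05, limma) and -0.09 (adjusted p = 0.81, limma). CHEK1, the DNA damage checkpoint kinase, was lower in fibroblasts by the call with human probes, at -1.29, and not with rhesus probes, at -0.59.

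Of the 35 genes on both array types, 13 were lower in fibroblasts on both, 7 with rhesus probes alone and 1 with human probes alone, 13 were called on neither, and 1 was called in opposite directions. Of the 13 shared calls, 12 were mitosis genes and 1 was CCNE2. The share of all genes that were lower on both array types was not computed, so these counts have no background beside them. A contrast of the rhesus and human differences in 1 limma fit of all 20 arrays called 6 of the 35 genes, 5 with the human difference higher and 1 with it lower. Of the 11956 genes on both types, 18.7% were called in this contrast, 9.08% higher and 9.59% lower, so the share among the division genes is near that of all genes. The arrays may have been normalized in separate sets, which was not tested.

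**Figure D4:**
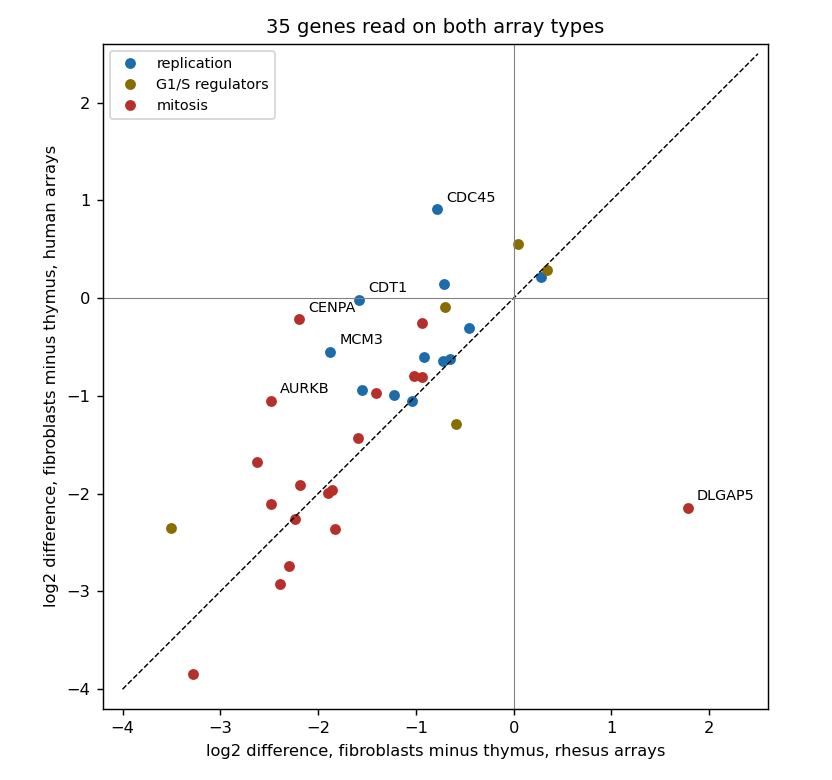
Log2 difference of fibroblasts minus thymus on rhesus arrays (horizontal axis) against that on human arrays (vertical axis) for 35 genes, coloured by class, with a dashed line of equal values and names at the 6 genes whose difference changed between array types. DLGAP5 stands alone at 1.78 and -2.14, and AURKB, CDC45, CDT1, CENPA and MCM3 lie above the line.

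DLGAP5, a spindle protein that steadies kinetochore fibres, was the gene called in opposite directions. Its brightest rhesus probe set measured 10.18 and 10.16 in fibroblasts and 8.54 and 8.24 in thymus, and 9.10 and 8.83 in cortex. The human probe set measured 6.07 and 5.83 in fibroblasts, 8.12 and 8.06 in thymus and 3.30 and 3.31 in cortex. The brightest rhesus probe set was therefore bright in every source and lowest in thymus, unlike other mitosis genes, and differed by 1.78 (SE 0.121, adjusted p = 3.57e-05, limma). A dimmer rhesus probe set of DLGAP5 averaged 5.28 in fibroblasts, 6.92 in thymus and 3.16 in cortex and differed by -1.65 (adjusted p = 0.000202, limma), in the direction of the human value. The single gene higher in fibroblasts with rhesus probes thus rests on which probe set is read. Among the 64 rhesus probe sets of the division genes 40 were lower and 1 was higher, beside 15.1% and 11.2% of all rhesus probe sets. Among the 103 human probe sets 41 were lower and 0 higher, beside 7.28% and 6.88%, and DLGAP5 was the gene whose probe sets were called both ways.

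CDC45, a part of the replicative helicase, measured 5.75 and 5.33 in fibroblasts and 6.47 and 6.17 in thymus with rhesus probes. With human probes it measured 3.59 and 3.14 against 2.39 and 2.52, with thymus at background. Its difference was -0.78 with rhesus and 0.91 (SE 0.137, adjusted p = 0.00415, limma) with human probes, and without fibroblast replicate 4 the human value was 1.13 and was called. CDT1 and CENPA were at 5.89 and 5.52 and at 5.92 and 6.14 in thymus with rhesus probes, but at 3.30 and 3.30 and at 2.94 and 3.17 with human probes. MCM3 ran from 2.40 to 10.07 over the rhesus arrays and from 7.13 to 8.22 over the human arrays, so that its human probe set told the sources apart little.

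Other genes of the cell cycle, from lists that hold none of the 50 genes, were also more often lower than higher in fibroblasts. Of other mitosis genes, 28 of 50 with rhesus probes were lower in fibroblasts, 4 were higher and 18 were not called, and with human probes 29 of 65 were lower, 2 higher and 34 not called. The medians were -1.08 and -0.90. Of other replication genes, 14 of 31 were lower, 1 was higher and 16 were not called with rhesus probes, and 19, 0 and 24 of 43 with human probes (4 higher there at an unadjusted limma p under 0.05), with medians of -0.88 and -0.78. The medians of these wider lists thus lay closer together than those of the 50 genes, as a description.

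**Figure D5:**
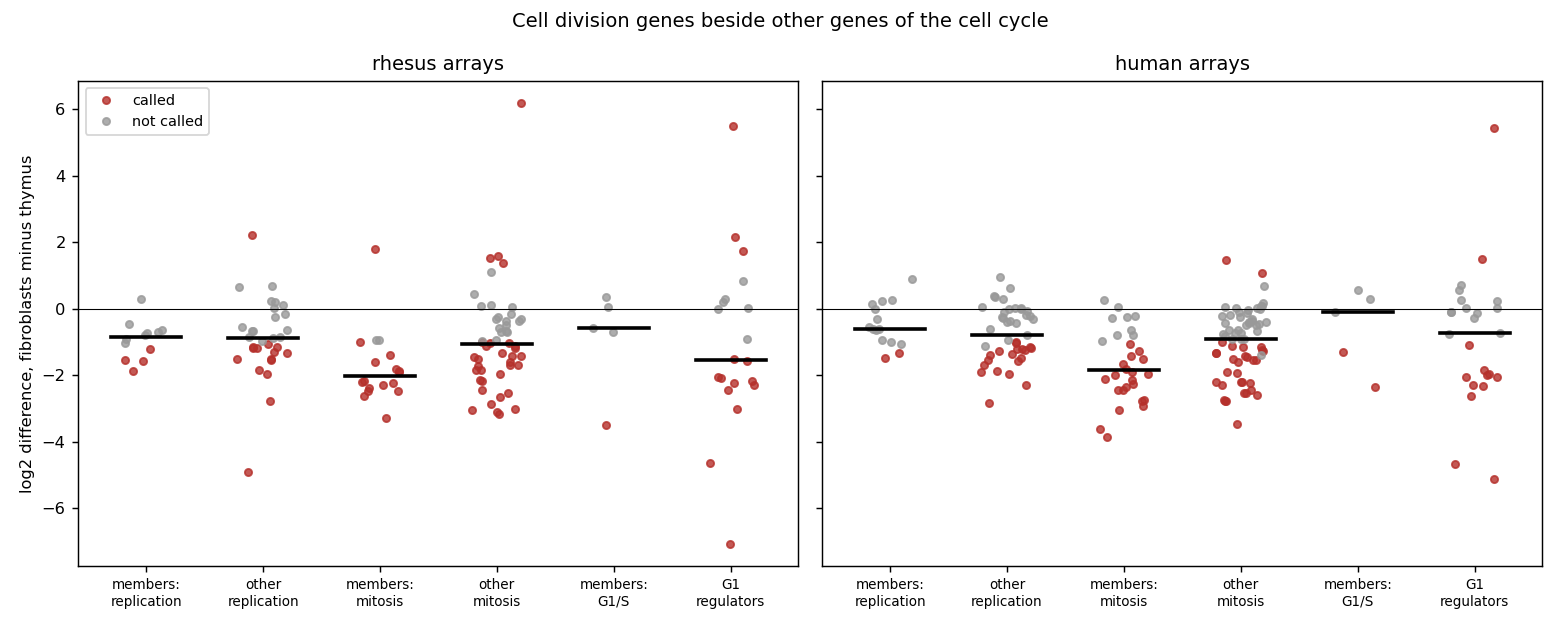
Log2 difference of fibroblasts minus thymus (vertical axis) for single genes in 6 lists (horizontal axis, points spread sideways at random), rhesus arrays on the left and human arrays on the right, red where called and grey where not, with a black bar at each median. The bar of the mitosis genes among the 50 lies at -2.04 and -1.86, and that of other mitosis genes at -1.08 and -0.90.

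On both array types 21 of 50 other mitosis genes were lower in fibroblasts and 2 were higher. Here too, the share of all genes called on both types was not computed. NEK2, a centrosome kinase, differed by -3.17 and -2.22, SMC4, a condensin subunit, by -2.55 and -2.79, and OIP5, which helps to load CENPA, by -3.11 and -2.54. ANLN, the anillin of the contractile ring, was higher by 1.59 (SE 0.133, adjusted p = 0.000101, limma) and 1.48 (SE 0.108, adjusted p = 0.000156, limma), and MAD1L1 by 1.39 and 1.08. Of other replication genes 11 of 31 were lower on both types and 0 higher. DUT, the enzyme that removes dUTP, differed by -4.93 and -1.18, and UHRF1, which helps to copy DNA methylation, by -2.78 and -1.91. MCM10, a replication initiation factor, differed by -1.54 and -2.84. The rhesus values of DUT did not follow the order of the division genes. Its fibroblast level with rhesus probes also lay below cortex, pancreas and testis, by -6.91, -5.88 and -5.83. Its thymus level lay below the same tissues, by -1.98, -0.956 and -0.903. With human probes DUT was highest in thymus. The reason for this contrast was not tested.

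Regulators of G1, from a further list, were more often lower than higher in fibroblasts. Of 20 genes with rhesus probes 11 were lower in fibroblasts, 3 were higher and 6 were not called, and of 25 with human probes 11, 2 and 12. The shares higher were 15.0% and 8%, under the 18% and 11.1% of all genes, and the shares lower were 55.0% and 44.0%, beside 16.0% and 9.15%. CCND1, cyclin D1, was higher in fibroblasts by 5.49 (SE 0.261, adjusted p = 6.47e-06, limma) and 5.44 (SE 0.102, adjusted p = 5.34e-07, limma), and its partner CDK4 by 1.75 and 1.498. These were the genes of this list that were higher on both types. E2F2 differed by -7.07 and -5.11, TFDP2, a dimer partner of E2F factors, by -4.63 and -4.68, and E2F8 by -3.01 and -2.63. RNA ends differed between fibroblasts and thymus. Actin control levels were 2.65 higher at the 3' than at the 5' end in fibroblasts and 2.07 in thymus with rhesus probes. With human probes these values were 2.29 and 2.03. The GAPDH control gave 1.99 and 1.38 with rhesus probes and 0.495 and 0.118 with human probes. The part of RNA ends in the differences of fibroblasts from thymus was not tested.

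Thymus was far above testis for nearly all division genes. It was higher for 32 of 35 genes with rhesus probes, where 12.9% of all genes were higher, and lower for 1, where 16.7% of all genes were lower. Human probes gave higher levels in thymus for 42 of 50 genes, beside 6.94% of all genes, and lower for 0, beside 8.82%, with 0 lower also at an unadjusted limma p under 0.05 and by an ordinary analysis of variance contrast. The medians of thymus minus testis were 2.90 and 3.13. Mitosis genes had medians of 3.32 and 3.50 and replication genes 1.80 and 1.56. MKI67 measured 5.80 and 5.65 in testis and 10.80 and 10.79 in thymus with rhesus probes, whereas PCNA measured 10.33 and 10.44 against 12.15 and 12.12. The gene that was lower in thymus was DLGAP5, by its brightest rhesus probe set.

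Testis was still above cortex for most of the genes. It was higher for 23 of 35 genes with rhesus probes, where 22.7% of all genes were higher, and for 27 of 50 with human probes, where 11.9% were. Lower in testis were 0 division genes on either array type by limma or by an ordinary analysis of variance contrast, beside 15.7% and 9.85% of all genes, and 1 on each type at an unadjusted limma p under 0.05. TOP2A measured 8.87 and 8.97 in testis and 2.31 and 2.28 in cortex with rhesus probes and 8.41 and 8.38 against 2.88 and 3.38 with human probes, a difference of 6.63 and 5.27. Of the thymocyte markers, 4 of 6 with rhesus probes and 2 of 8 with human probes were higher in testis than in cortex and 0 were lower. Their levels in testis ran from 2.65 for CD4 to 8.45 for CD1B, with a median of 6.12, with rhesus probes and from 1.84 for CD3E to 5.89 for RAG1, with a median of 3.40, with human probes, beside medians in cortex of 3.19 and 2.94. All 6 and all 8 thymocyte markers were highest in thymus, though CD3E with human probes was at background there, at 2.75. The part of thymocytes in the testis values was not tested.

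Fibroblasts were above testis for 22 of 35 genes with rhesus probes, beside 16.6% of all genes, and for 28 of 50 with human probes, beside 10%. Lower were 0 genes on both types by limma, also at an unadjusted p under 0.05, beside 17.2% and 9.49% of all genes. The medians of fibroblasts minus testis were 1.12 and 1.25. TYMS measured 6.89 and 6.91 in testis against 10.73 and 10.78 in fibroblasts with rhesus probes. CENPF with rhesus probes gave 8.83 and 8.72 in testis against 9.19 and 9.13 in fibroblasts, a smaller gap. Fibroblasts exceeded cortex for 32 and 39 genes, beside 22.5% and 13.2% of all genes, and pancreas for 29 and 34 genes, beside 25.0% and 16.8%. Thymus exceeded cortex for 33 and 42 genes, beside 23.0% and 12.6%, and pancreas for 33 and 41, beside 24.4% and 15.6%. Testis exceeded pancreas for 22 and 23 genes, beside 25.9% and 16.4%, and with human probes it was below pancreas for 2, beside 5.25%.

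Between cortex and pancreas, 24 of 35 division genes with rhesus probes and 41 of 50 with human probes were not called. At or under the highest background control lay 9 and 20 genes in cortex and 7 and 17 in pancreas, where a difference could be missed. Pancreas was higher than cortex for 6 of 35 genes with rhesus probes, beside 15.7% of all genes, and lower for 5, beside 22.3%. With human probes it was higher for 6 of 50, beside 7.30%, and lower for 3, beside 15.6%. The shares were 17.1% higher and 14.3% lower with rhesus probes and 12% and 6% with human probes, so the human share of higher genes was above that of all genes, the rhesus share of higher genes near it and both shares of lower genes below it. The counts depended on scaling, since the spiked controls averaged 11.1 and 11.4 in pancreas against 10.1 and 10.3 in cortex, and scaling to them gave 0 higher and 13 lower with rhesus probes and 3 higher and 24 lower with human probes. The actin control was 4.58 higher at its 3' than at its 5' end in pancreas and 2.13 in cortex with rhesus probes. With human probes the gap was smaller, at 2.40 and 2.03. The GAPDH control gave 2.76 and 1.85 with rhesus probes and 1.31 and 0.437 with human probes.

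MCM4 was lower in pancreas than in cortex on both array types, with cortex at 8.58 and 8.43 and pancreas at 5.77 and 4.61 with rhesus probes and 7.44 and 6.98 against 4.01 and 3.85 with human probes. The log2 difference, pancreas minus cortex, was -3.31 (adjusted p = 0.000237, limma) and -3.28 (adjusted p = 2.32e-05, limma). PTTG1 was also lower in pancreas on both types, with -2.84 and -2.03, and MAD2L1 with -1.06 and -1.15. ASPM was higher in pancreas than in cortex, by 1.99 and 2.28, and its pancreas values of 4.84 and 4.99 with rhesus and 5.36 and 5.33 with human probes were near its fibroblast values. MYBL2 was higher in pancreas by 1.39 (adjusted p = 6.7e-07, limma) and 2.38 (adjusted p = 0.000222, limma), and its human values of 7.38 and 7.20 in pancreas lay above both its fibroblast and its thymus arrays. With rhesus probes the order was the reverse. Its pancreas arrays read 4.69 and 4.67 there, with fibroblasts higher than pancreas by 1.95 and thymus by 2.64. CCNB1 was lower in pancreas by the call with rhesus probes, at -2.92 (adjusted p = 1.51e-06, limma), and not with human probes, at -0.71.

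A few probe sets stayed well above background in the tissues with the lowest levels. The naming rule took the members with the highest mean over both array types in cortex, which were GINS1, MCM4 and RRM1, and in pancreas, which were GINS1, PCNA and RRM1. GINS1 measured 9.53 and 9.47 in cortex, 8.94 and 9.07 in pancreas, 9.09 and 8.92 in testis, 10.05 and 10.07 in fibroblasts and 10.51 and 10.52 in thymus with rhesus probes. Its human values ran from 6.99 in testis to 8.77 in thymus, so the 5 sources lay within 2 log2 units on each array type. PCNA measured 7.29 and 7.18 in cortex and 8.03 and 8.07 in pancreas with rhesus probes and 7.13 and 7.05 against 7.69 and 7.85 with human probes. RRM1 measured 7.60 and 7.44 in cortex and 7.42 and 7.85 in pancreas with rhesus probes, where the sources overlapped.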

How the data were processed

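Each array type has 1 table of log2 values that the authors deposited, made with RMA by the submitters' processing notes. The RMA version, and which arrays were run together, are not stated in the sources used here. The methods of the study describe intensities of single probes, which is another set of values. Sources came from the sample labels and symbols from the annotation of the arrays, and 62 of 64 rhesus member probe sets were found by gene number in RefSeq's rhesus genes, with 0 symbols changed.

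limma 3.58.1 (lmFit and eBayes, R 4.3.3) was fitted to all 10 arrays of a type leaving out control probe sets (52766 rhesus and 54613 human probe sets kept), with Benjamini-Hochberg adjustment. The array types were compared at the gene level in 1 fit of 20 arrays. With 2 arrays per source, the spread was pooled over sources and the number of arrays limits precision.

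The genes and lists were chosen with earlier results of these data known. Named were the 5 mitosis, 5 replication and 2 G1/S genes (or as many as there were) with the largest fibroblast to thymus difference called on both types, the 3 with the smallest, those called in opposite directions, the 3 highest in cortex and in pancreas, and the 3 largest called on both types per direction in 3 further lists (44 replication, 66 mitosis and 25 G1 genes). Others are said to be chosen after their values were seen, or stand with their group. Marker lists of 8 genes each checked the sources.

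In data simulated for fibroblasts against thymus, 77 of 100 probe sets changed by 1.5 and 95 of 100 changed by 3 were called with rhesus probes. With human probes these were 73 and 98. All other simulated probe sets were equal between sources, so far fewer differed than in the real data. The shares called therefore do not give the sensitivity of the real comparison. Alternatives were quantile normalization, scaling to array medians or to spiked controls, no minimum difference, a filter on dim probe sets, the compared arrays alone, an ordinary analysis of variance contrast, a mean over probe sets or the probe set with the largest spread, the replicate number as a block, and each array left out in turn. Replicate numbers did not pair the arrays, since deviations of arrays with the same number correlated from -0.0341 to 0.0177. No sequence is shown.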

Additional observations from a re-analysis of the deposited data

Results flagged for a closer look

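For 6 genes the log2 difference of fibroblasts minus thymus changed between array types in the limma contrast of all 20 arrays. The human difference exceeded the rhesus one by 1.43 for AURKB (adjusted p = 0.000848), by 1.69 for CDC45 (0.000169), by 1.57 for CDT1 (0.00015), by 1.98 for CENPA (0.00286) and by 1.33 for MCM3 (0.00597). For DLGAP5 the change was -3.93 (adjusted p = 7.46e-10), since its brightest rhesus probe set was higher in fibroblasts and its human probe set lower. AURKB, the kinase of the chromosomal passenger complex, measured 6.57 and 6.74 in fibroblasts and 9.10 and 9.15 in thymus with rhesus probes and 4.38 and 4.68 against 5.79 and 5.37 with human probes. Its human call in fibroblasts against thymus was lost without fibroblast replicate 3 (adjusted p = 0.0919) or thymus replicate 3 (adjusted p = 0.0953). With a filter on dim probe sets 29 of the 35 genes were tested and 3 were called.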

How the results depend on the processing

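With no minimum difference, counts on the rhesus and human arrays became 16 and 11 genes higher and 8 and 6 lower in pancreas than in cortex. They were 1 and 1 lower in testis than in cortex, and 1 higher in fibroblasts than in thymus with human probes. In that setting 11 genes changed between array types. The filter on dim probe sets, with the minimum difference kept, gave 3 such genes of 29. Scaling to spiked controls gave 0 and 3 genes higher and 13 and 24 lower in pancreas than in cortex, and 1 human gene higher in fibroblasts than in thymus. Quantile normalization gave 11 rhesus genes higher in pancreas than in cortex. With a mean over probe sets or the probe set with the largest spread, 0 rhesus genes were higher in fibroblasts than in thymus and 0 lower in thymus than in testis. Counting a gene by any of its probe sets was chosen after seeing the data and can only keep or raise a count. It gave 25 rhesus and 28 human genes lower in fibroblasts than in thymus. Leaving out each array gave 18 to 21 rhesus and 22 to 26 human genes lower in fibroblasts than in thymus, and 0 to 1 human gene higher, the 1 without fibroblast replicate 4.

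The sign of fibroblasts minus thymus turned with spiked controls for CCNB1 (0.16), CDT1 (0.39), CENPA (0.19), GINS1 (0.11), MYBL2 (0.32) and PRC1 (0.13) with human probes and for GINS1 (0.063) with rhesus probes. With a mean over probe sets it turned for BIRC5 (-0.062, human) and TYMS (-0.022, rhesus), and with the probe set of largest spread for DLGAP5 (-1.65, rhesus). With an array left out, the human values ran from -0.066 to 0.037 for CDT1 and from -0.024 to 0.593 for E2F1, both turned without fibroblast replicate 3, and from -0.701 to 0.268 for CENPA, turned without fibroblast replicate 4. The cause of these changes was not tested. Of the genes called in this comparison, 436 values under other settings kept direction and call, 23 lost the call and 1 turned. With an array left out, none of their values turned, though some lost the call, as given above for single genes. Only fibroblast and thymus arrays enter this difference. An array of another source left out could alter a call only through the pooled spread.

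With the replicate number as a block, 20 rhesus and 25 human genes were lower and 1 and 0 higher in fibroblasts than in thymus, and 26 human genes were higher in testis than in cortex. The numbers did not pair the arrays. Near background, low signal limits what the human arrays can show for GINS2, HMMR and CENPA.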
